A study of Mus musculus with 143 samples.

Results

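A set of 9 transcription factors of microglial and myeloid identity was followed through single microglia of the young mouse cerebellum. They are Spi1, Irf8, Runx1 and Cebpa, which act in the myeloid lineage, Sall1, Mef2c and Maf, which act in microglia and other tissue macrophages, and the paired repressors Bhlhe40 and Bhlhe41. They were taken by name, 9 of the 23337 gene rows of the count table, and together they took 0.154% of all gene counts. The cells came from wild-type C57BL6N mice at postnatal day 7, although the name of the pooled library in the labels holds the word adult. Males were pooled, and live cells with low CD45, CD11b, Gpnmb and Clec7a on their surface were sorted singly into plates for Smart-seq2, a full-length RNA-seq method without molecular identifiers. All 143 cells, 95 on plate 1 and 48 on plate 2, belong to 1 group of 1 pool and cannot be assigned to an animal. They were therefore treated as 1 sample with the plates as technical batches, and no test between cells was run. Microglia outside this gate were not analysed here, so levels are described within the gate only.

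Spi1 encodes PU.1, an ETS-domain factor that macrophages and microglia need to form and that opens myeloid enhancers. IRF8 binds DNA largely as a partner of PU.1, RUNX1 acts in blood stem cells and early microglia, and CEBPA drives myeloid progenitors. SALL1 is a zinc-finger factor that, among macrophages, marks microglia and keeps their homeostatic state, while MEF2C and MAF are factors of maturing and adult microglia. BHLHE40 and BHLHE41 are basic helix-loop-helix repressors of each other's and clock genes, and in microglia they are known to hold back a lysosomal and lipid-response programme.

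Total counts per cell ran from 271190 to 1226521 (median 760690), and 1552 to 4955 genes were detected per cell. A single count in the median cell equalled 1.37 CPM, the counts of a gene scaled to 1000000 gene counts per cell. A factor is called read in a cell with at least 1 count, and each share of cells carries its exact 95% interval, which covers counting error only. For a gene with a count in 0 of 143 cells the interval reaches 2.55%. The labelled cell type was checked on other lineages: of 26 transcription factors of other blood and brain lineages, 18 had no count, and the highest, Batf3, was read in 11.9% of cells. Mef2c is also a neuronal gene, and the 9 other neuronal markers summed to 9.72 CPM, the most frequent being Rbfox3 in 5.59% of cells. Maf is also a gene of border macrophages of the brain. Of the 13 other genes of that list, Stab1 was read in 87.4%, Folr2 in 74.1% and Mrc1 in 55.9% of cells, while Cd163, Lyve1 and Cd209f had no count.

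Among the myeloid factors, Spi1 was the most widely read. It had counts in all but 6 of 143 cells (95.8%, interval 91.1 to 98.4), in 97.9% of plate 1 and 91.7% of plate 2. Its level ran from 0 to a median of 402 and a highest value of 1536 CPM, with quartiles of 283 and 600. The lowest nonzero count of Spi1 was 5, or 8.54 CPM, so no cell held 1 to 4 counts of it. Irf8 was read in all but 15 cells (89.5%, 83.3 to 94.01), with a median of 351 CPM and a highest value of 1483. The quartiles of Irf8, 170 and 572 CPM, lay further apart than those of Spi1. Its pooled level was 372 CPM on plate 1 and 526 CPM on plate 2.

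Runx1 and Cebpa were read in fewer cells. Runx1 had counts in 66 cells (46.2%, 37.8 to 54.7), in 46.3% of plate 1 and 45.8% of plate 2, with a median of 85.8 CPM among the cells with a count and a highest value of 322. Cebpa had counts in 49 cells (34.3%, 26.5 to 42.7), with a median of 58.2 CPM among them and a highest value of 237. Cebpa was read in 38.9% of the cells of plate 1 and in 12 of the 48 of plate 2. Detection of Runx1 followed the number of genes read in the cell: it was read in 19.1% of cells in the lowest tertile of genes detected, in 52.1% of the middle and in 66.7% of the highest.

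Of the microglial factors, Mef2c was read in about as many cells as Irf8, and Sall1 was split. Mef2c had counts in 130 cells (90.9%, 84.96 to 95.1), with a median of 324 and a highest value of 1493 CPM. Sall1 had counts in 84 cells (58.7%, 50.2 to 66.9), in 57.9% of plate 1 and 60.4% of plate 2. Its median over all cells was 17.4 CPM, but 130.96 CPM among cells with a count, and its highest value was 1197. Unlike Runx1, Sall1 was not read more often in richer cells: the shares by tertile of genes detected were 59.6%, 66.7% and 50.0%. The 5 highest cells held 23.6% of the Sall1 level summed over cells, against 9.82% for Spi1.

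Maf was low and widespread. It had counts in all but 24 cells (83.2%, 76.1 to 88.9), in 87.4% of the cells of plate 1 and in 36 of the 48 of plate 2, with a median of 59.6 and a highest value of 490 CPM. The 200 genes with the nearest pooled CPM were read in a median of 49.7% of cells, and Maf lay above 92.5% of them. Bhlhe40 was the opposite case. It had counts in 18 cells (12.6%, 7.63 to 19.2) with a median of 147 CPM among them and a highest value of 500. No cell held 1 to 4 counts of Bhlhe40, its lowest nonzero count was 8, and it was read in fewer cells than 20.3%, the median of the 200 genes of like pooled CPM. Bhlhe41 had counts in 26 cells (18.2%, 12.2 to 25.5), with a median of 32.9 CPM among them and a highest value of 154. The 5 highest cells held 50.9% of the summed level of Bhlhe40 and 50.6% of that of Bhlhe41.

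**Figure D1:**
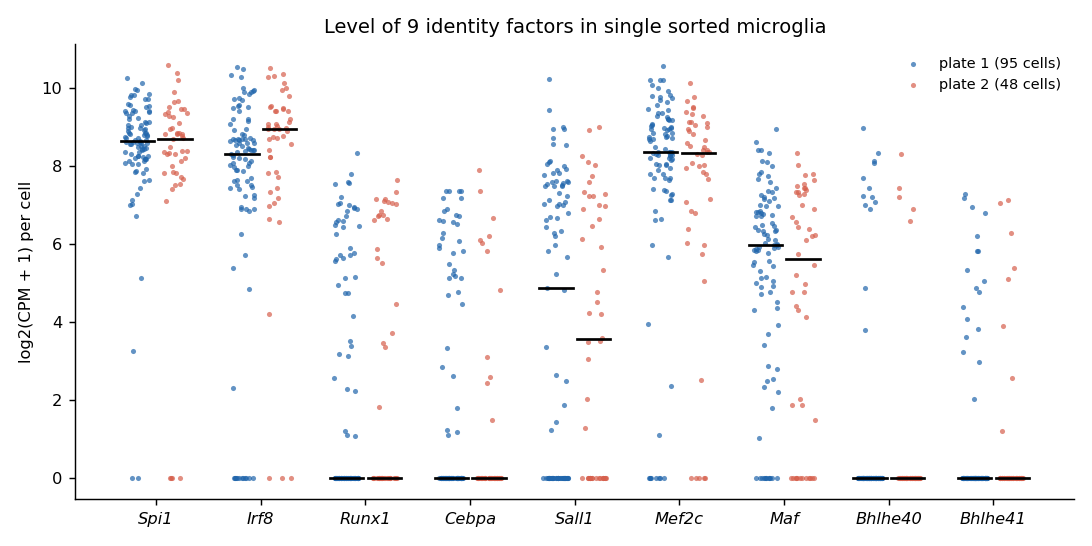
Level of each of the 9 factors by cell, as log2(CPM + 1), with the 2 plates in separate colours and the median of each plate as a black line. Spi1, Irf8 and Mef2c form dense bands in 89.5% to 95.8% of cells, Sall1 and Runx1 are divided between cells with and without counts, and the few Bhlhe40 cells sit well above the level of 1 count.

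The shares were little changed by thinning the counts, which could remove few detections. The median count among cells with a count ran from 21 (Bhlhe41) to 287 (Spi1). By genes detected the share of Runx1 changed far more, as given above. After each cell had been thinned to 200000 gene counts, Spi1 was read in 95.8% of cells, Mef2c in 89.5%, Irf8 in 88.8%, Maf in 79.7%, Sall1 in 55.2%, Runx1 in 42.7%, Cebpa in 30.1%, Bhlhe41 in 16.8% and Bhlhe40 in 12.6%. Levels of different factors were compared only after division by exon length, rescaled to a sum of 1000000 over the 22899 genes with an annotated length. On that scale Spi1 stood at 507, rank 232, and Irf8 at 181, rank 820. Mef2c followed at 74.5, Sall1 at 57.4, Maf at 30.7, Cebpa at 26.7, Bhlhe40 at 15.4, Runx1 at 10.0 and Bhlhe41 at 4.15. The order was the same on each plate, but neighbours came close. On plate 1 Maf and Cebpa stood at 31.2 and 29.8, and on plate 2 Bhlhe40 and Runx1 stood at 11.7 and 10.9, gaps smaller than the shift of Cebpa or Bhlhe40 between the plates (Cebpa 29.8 and 19.8, Bhlhe40 17.1 and 11.7).

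The genes lie, in the GRCm38 build, at chr2:91082390-91115756 on the plus strand (Spi1, listed in the table under its older symbol Sfpi1), chr8:120736358-120756694 plus (Irf8), chr16:92601466-92826149 minus (Runx1) and chr7:35119293-35121928 plus (Cebpa). Sall1 lies at chr8:89027235-89044162 minus, Mef2c at chr13:83504034-83667080 plus and Maf at chr8:115682942-115707794 minus. Bhlhe40 and Bhlhe41 lie on the same chromosome, at chr6:108660629-108666925 plus and chr6:145858243-145865558 minus. Runx1, Cebpa, Maf, Bhlhe40 and Bhlhe41 overlap a gene annotated on the opposite strand, and Irf8 overlaps Gm20388 on its own strand. Whether reads were counted by strand is not stated in any source used here, so reads of these partners cannot be told apart, except that the partner of Bhlhe40, 0610040F04Rik, has its own row with a count of 0.

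The close relatives of each factor were mostly read in fewer cells. Of the SALL family, Sall3 was read in 26.6% of cells, Sall2 in 1.40% and Sall4 in 0.699%. Mef2a, which shares the DNA-binding domain of Mef2c, was read in 62.9%, Mef2d in 11.2% and Mef2b in none. Among interferon regulatory factors, Irf5, which acts downstream of Toll-like receptors, was read in 55.9% and Irf2 in 53.1%, followed by Irf3 in 28.7% and Irf9 in 23.8%. Irf1 was read in 9.09%, Irf7 in 3 cells and Irf4 in none. The small MAF proteins Mafg, Maff and Mafk were read in 21.7%, 11.9% and 9.09%, and Mafa and Nrl in none.

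Of the 17 listed ETS factors, 10 were read in at least 20% of cells. Fli1 came after Spi1 with 78.3%, then Elk3 with 62.9%, Elf1 with 44.1%, Etv1 with 34.3%, Ets1 with 30.8%, Gabpa with 28.7%, Etv5 with 27.97%, Etv6 with 27.3% and Elf4 with 25.2%. Spib and Spic, the nearest relatives of Spi1, had no count. Runx1 was the RUNX member of these cells: Runx2 was read in 0.699% and Runx3 in none, while their common partner Cbfb was read in 37.1%. In the CEBP family, Cebpz and Cebpg were read in 38.5% and 34.97%, Cebpd in 17.5%, Cebpb, an inflammatory member, in 13.99% and Cebpe in none. The clock activators Clock and Arntl, whose targets BHLHE40 and BHLHE41 repress, were read in 16.8% of cells and in 6 cells.

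The factors were then counted per cell. A median of 5 of the 9 were read, with a range of 2 to 8, and no cell had all 9. Fewer than 5 were read in 31 cells, 7 or more in 19 and 3 or fewer in 9. Spi1, Irf8, Mef2c and Maf were read together in 98 cells (68.5%, 60.2 to 76.03), against 64.9% from the product of their shares. The number read rose with the genes detected in the cell (Spearman rho 0.43 over 143 cells, 0.43 on plate 1 and 0.47 on plate 2), both being counts from the same library.

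Because of that relation, each of the 36 pairs was set against the number of joint cells given by independent detection within strata of plate and tertile of genes detected. The median quotient of observed to depth-matched cells was 1.01, and most pairs lay close to it. Of the pairs, 3 had a quotient of at least 1.1, and none of them did on both plates. Not every pair could reach that limit, since a widely read factor leaves little room above the matched number. Each pair with Spi1 had a highest possible quotient under 1.1, as did Mef2c with Bhlhe40 (1.07), against 4.99 for Bhlhe40 with Bhlhe41. Bhlhe40 and Bhlhe41 were read together in 6 cells against 3.61 (quotient 1.66, with 1.87 on plate 1 and 1.07 on plate 2). Cebpa and Bhlhe41 were read together in 12 cells against 9.67, with quotients of 1.45 and 0.48 by plate. The quotient of Cebpa and Bhlhe40 was 1.20.

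A further 5 had a quotient below 0.9, and 4 of them did on both plates. Those 4 join a repressor of the BHLHE pair with Sall1 or Mef2c. All 5 include Bhlhe40 or Bhlhe41, the factors read in the fewest cells. No background share over other gene pairs of like detection was computed. Sall1 and Bhlhe40 were read together in 5 cells against 10.2 (quotient 0.49, with 0.40 on plate 1 and 0.73 on plate 2). Sall1 and Bhlhe41 shared 11 cells against 14.8 (0.74, with 0.69 and 0.85). Mef2c and Bhlhe40 shared 13 cells against 16.8 (0.78, with 0.82 and 0.65), and Mef2c and Bhlhe41 shared 20 against 23.8 (0.84, with 0.84 and 0.83). On plate 2 these 4 pairs rest on few cells: in the order given, 2 against 2.75, 4 against 4.69, 3 against 4.625 and 6 against 7.25. The fifth pair was Irf8 and Bhlhe41, at 0.84, with 0.80 and 0.93.

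**Figure D2:**
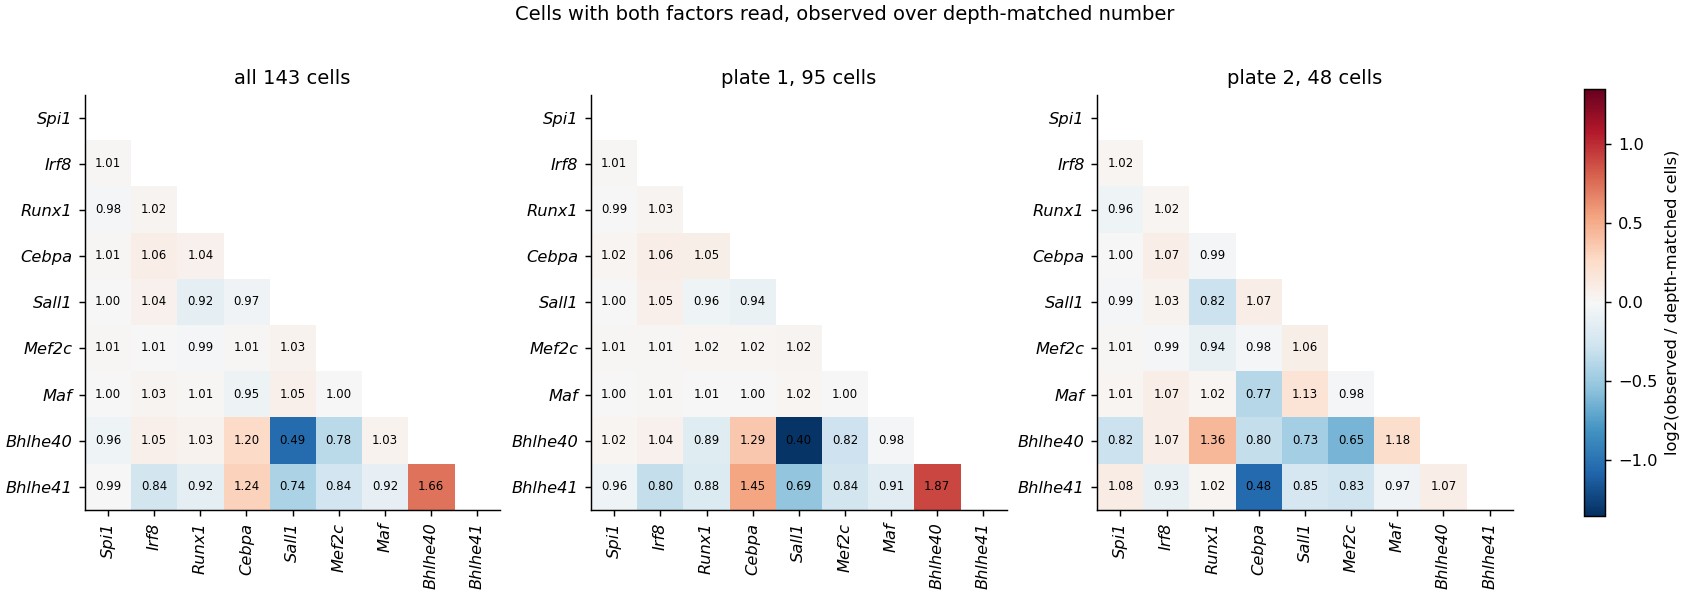
Cells with both factors read, divided by the depth-matched number, for the 36 pairs in all cells and on each plate, with the log2 of the quotient as colour. The blue squares where Sall1 and Mef2c meet Bhlhe40 and Bhlhe41 appear on both plates, but on plate 2 they rest on 2 to 6 joint cells. The red square of Bhlhe40 with Bhlhe41 is 1.87 on plate 1 and 1.07 on plate 2.

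Seen from the repressor, Sall1 was read in 5 of the 18 Bhlhe40 cells (27.8%, 9.69 to 53.5) and in 79 of the cells without Bhlhe40 (63.2%, 54.1 to 71.6). These intervals do not overlap, but they cover counting error only, and the pair has the lowest quotient of the 36 in these same cells. How many other genes show such a gap was not tested. On plate 1 the counts were 3 of 13 against 52 of 82, and on plate 2 they were 2 of 5 against 27 of 43, so the second plate rests on 5 cells. After thinning, the shares were 27.8% and 59.2%, with an interval of 50.1 to 67.9 for the second that overlaps the first. At 5 counts or more they were 27.8% and 57.6%, again with overlapping intervals (48.4 to 66.4 for the second). Mef2c was read in 13 of 18 Bhlhe40 cells (72.2%, 46.5 to 90.3) and in 93.6% of the others (87.8 to 97.2), intervals that overlap. With Bhlhe41, Sall1 was read in 11 of 26 cells (42.3%, 23.4 to 63.1) against 73 of the rest (62.4%, 52.96 to 71.2), intervals that overlap. Of the 38 cells with either repressor, 15 had Sall1 (39.5%, 24.04 to 56.6), against 69 of the rest (65.7%, 55.8 to 74.7). Genes detected were slightly more numerous in the Bhlhe40 cells (median 3458 against 3200).

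By level the pairs were only weakly related. After adjustment for genes detected, Spearman rho between factors ran from -0.24 to 0.19 over the 36 pairs, and 24 pairs had the same sign on both plates. The lowest was Sall1 with Bhlhe40 (-0.24, with -0.27 on plate 1 and -0.17 on plate 2). The highest was Irf8 with Cebpa (0.19, with 0.21 and 0.15), and Sall1 with Mef2c stood at 0.15. PU.1 and its partner IRF8 had a rho of 0.14 at the RNA level.

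The sequences before the starts of Bhlhe41 and Sall1 are shown because this pair was among those read together less often than depth-matched, and because BHLHE40 and BHLHE41 are known to bind the E-box CACGTG, which reads the same on both strands. RefSeq windows (GRCm38.p6) of 250 bases before a start were at hand for 6 of the 9 factors, 12 windows in all, and the E-box was searched as those letters. It was found in 2 windows, those of Bhlhe41 and of Runx1. In Bhlhe41 it lies at chr6:145865568-145865573. Its far end is 153 bases before the RefSeq start at 145865420, and its near end is 10 bases before the start of the longer GENCODE gene given earlier. In Runx1 its far end lies 71 bases before a RefSeq start, just inside the GENCODE gene. Of all 32851 windows, 6.02% hold it. In the lines that follow, the sequence upstream of Bhlhe41 covers chr6:145865559-145865670 and that of Sall1 chr8:89044163-89044412, both on the minus strand and 5′ to 3′, with the E-box in capitals.
Bhlhe41: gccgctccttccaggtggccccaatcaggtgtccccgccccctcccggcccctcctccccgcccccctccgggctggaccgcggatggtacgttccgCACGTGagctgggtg
Sall1: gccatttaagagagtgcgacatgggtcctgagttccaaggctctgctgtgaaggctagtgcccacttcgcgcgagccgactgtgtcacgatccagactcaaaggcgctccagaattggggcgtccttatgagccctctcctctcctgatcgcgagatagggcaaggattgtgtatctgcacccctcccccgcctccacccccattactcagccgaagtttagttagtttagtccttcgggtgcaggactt
The Sall1 stretch holds no such match, which says only that these letters are absent from this window.

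Each factor was next set beside the homeostatic genes of microglia and the genes that mark the sorted state, known as proliferative-region-associated or disease-associated microglia (PAM/DAM). These were the depth-adjusted Spearman values over cells, counted where the sign was the same on both plates. Sall1 was positive on both plates with 15 and negative with 0 of 20 homeostatic genes (median rho 0.12), while 25.1% of all 5063 genes were positive and 28.3% negative on both. Mef2c was positive with 12 and negative with 0 (median 0.12, all genes 25.2% and 26.7%), and Irf8 was positive with 10 and negative with 1 (median 0.07, all genes 25.4% and 24.6%). Bhlhe40 and Runx1 went the other way. Bhlhe40 was positive with 1 and negative with 8 (median -0.10, with -0.12 on plate 1 and -0.01 on plate 2, all genes 24.4% and 29.2%), and Runx1 was positive with 0 and negative with 9 (median -0.03, all genes 24.6% and 25.005%). Spi1, with 7 positive and 7 negative (all genes 25.8% and 22.9%), had no direction. Nor did Bhlhe41, with 3 positive and 4 negative (median -0.01, with -0.08 on plate 1 and 0.06 on plate 2, all genes 23.3% and 26.1%).

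With the 23 PAM/DAM genes the order of Bhlhe40 against Sall1, Mef2c and Irf8 was turned round. Bhlhe40 was positive on both plates with 15 and negative with 2 (median rho 0.17), and Bhlhe41 positive with 8 and negative with 2 (median 0.09, all genes 23.3% and 26.1%). Sall1 was positive with 4 and negative with 11 (median -0.10), although its median was -0.15 on plate 1 and 0.00 on plate 2. Mef2c was positive with 4 and negative with 12 (median -0.07), and Irf8 positive with 4 and negative with 11 (median -0.05). All of these correlations are weak, and the points share library depth, base composition and the sorting gate.

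Named genes show the sizes. Sall1 had its highest values in the homeostatic list with the fractalkine receptor Cx3cr1 (0.30, with 0.41 on plate 1 and 0.08 on plate 2), the purinergic receptor P2ry12 (0.28, with 0.34 and 0.16) and the complement gene C1qa (0.25, with 0.22 and 0.29). Its lowest in the PAM/DAM list were with the galectin Lgals3 (-0.35, with -0.35 and -0.34), the tetraspanin Cd9 (-0.27, with -0.29 and -0.25) and the fatty-acid binding protein Fabp5 (-0.23). Mef2c had the same 3 leading homeostatic genes: Cx3cr1 at 0.31 (0.33 and 0.27), C1qa at 0.23 and P2ry12 at 0.22 (0.21 and 0.23). Its lowest PAM/DAM gene was Lgals1 (-0.27, with -0.30 and -0.22), and Cst7, an inhibitor of cathepsins, was the highest at 0.19. In the homeostatic list Irf8 was highest with the receptor Gpr34 (0.23, with 0.23 and 0.22) and lowest with the ectonucleotidase Entpd1 (-0.18), and its lowest PAM/DAM gene was Lgals3 (-0.19).

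Bhlhe40 was highest with Fabp5 (0.36, with 0.35 on plate 1 and 0.40 on plate 2), the integrin Itgax (0.32, with 0.36 and 0.24) and Cd9 (0.30, with 0.28 and 0.34). It was lowest with Cx3cr1 (-0.30, with -0.29 and -0.30) and P2ry12 (-0.28, with -0.31 and -0.22). Among the PAM/DAM genes Cd52 had the lowest value with Bhlhe40, -0.16. Bhlhe41 was highest with Itgax too (0.26, with 0.29 and 0.20), then Fabp5 (0.21, with 0.24 and 0.16). Both BHLHE repressors therefore had Itgax and Fabp5 among their 3 leading PAM/DAM genes.

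**Figure D3:**
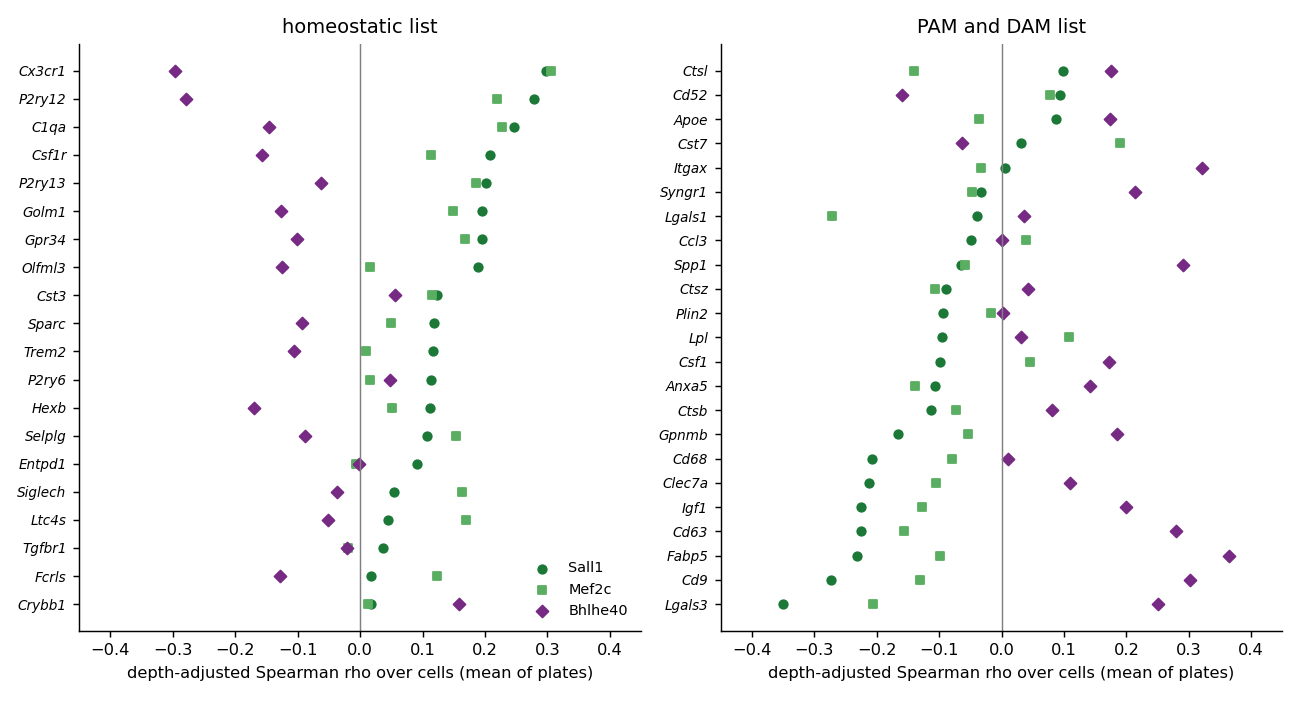
Depth-adjusted Spearman rho of Sall1, Mef2c and Bhlhe40 with the genes of the homeostatic and PAM/DAM lists, 1 row per gene and 1 marker per factor. The list medians are not drawn. Homeostatic medians are 0.12 for Sall1 and Mef2c and -0.10 for Bhlhe40, and PAM/DAM medians are -0.10, -0.07 and 0.17 for the same 3 factors.

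The same relation was read as levels in the cells with and without Bhlhe40. Cx3cr1 ran from 707 to 3692 CPM in the 18 cells with Bhlhe40, with a median of 2133, and from 0 to 11020 in the others, with a median of 3656. P2ry12 had medians of 41.9 and 320 CPM, on plate 1 31.1 and 333 and on plate 2 130 and 297. Fabp5 had medians of 657 and 271 CPM, on plate 1 657 and 250 and on plate 2 656 and 294. The ranges overlap for every one of these genes, but the medians lie on the same side on both plates. Lgals3 stood at 2023 against 848 CPM and Itgax at 353 against 0. By pooled CPM, 5 of 24 PAM/DAM genes (20.8%) were at least 1.5-fold higher in the Bhlhe40 cells and 0 lower, beside 11.13% of all 5570 genes higher and 21.2% lower. Of 21 homeostatic genes 0 were higher and 4 lower, a share of 19.05% that is close to that of all genes. The 13 other border-macrophage genes summed to 40.0 to 2446 CPM in cells with Bhlhe40 (median 545) and to 0 to 3727 without (median 735). Immediate-early genes, which rise with stress of dissociation, summed to 162 to 1499 CPM with Bhlhe40 (median 612) and to 0 to 5297 without (median 320), and their part in the result was not tested.

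With Sall1 the contrast was smaller. Lgals3 had a median of 719 CPM in the 84 cells with Sall1 and 1524 in the 59 without, on plate 1 779 and 1410 and on plate 2 573 and 1577. Plaur, the urokinase receptor, had medians of 92.7 and 270.5 CPM. Cx3cr1 stood at 3723 against 2644 CPM, but the plates differed: 3640 and 2340 on plate 1, and 3917 and 4237 on plate 2. P2ry12 also differed by plate, with 393 and 176 CPM on plate 1 and 288 and 297 on plate 2. C1qa stood at 2544 and 2405 on plate 1 and at 2610 and 2027 on plate 2. Of 24 PAM/DAM genes 1 was at least 1.5-fold higher and 3 lower with Sall1, beside 9.78% and 8.89% of all genes, so the list is near the background by that measure. Of 21 homeostatic genes 1 was higher (4.76%) and 0 lower, no more than the shares of all genes. Immediate-early genes summed to medians of 304 CPM with Sall1 and 475 without, and their part was likewise not tested.

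In the remaining lists, Mef2c was negative on both plates with 15 of 25 lysosomal genes and positive with 1 (median rho -0.08, all genes 26.7% and 25.2%), with the β-glucuronidase gene Gusb at -0.28 (-0.30 and -0.25) and the sialidase gene Neu1 at -0.21. Spi1 showed no such direction with 16 genes known as PU.1 targets, being positive with 4 and negative with 5, while Bhlhe40 was negative with 10 and positive with 3 of them. Maf had its highest border-macrophage values with Stab1 (0.28, with 0.22 on plate 1 and 0.41 on plate 2) and Mrc1 (0.24, with 0.37 and -0.03), while Folr2 was at -0.02. Of 16 S-phase genes, Bhlhe40 was negative on both plates with 13 and positive with 0 (all genes 29.2% and 24.4%), Sall1 negative with 11 and positive with 0 (28.3% and 25.1%), Irf8 negative with 10 and positive with 2 (24.6% and 25.4%) and Spi1 negative with 8 and positive with 0 (22.9% and 25.8%). Bhlhe40 was also negative with 6 of 6 G2/M genes. Its pooled level did not follow these signs in cells classed as S by the rule given below. There it was 37.7 CPM, against 20.1 in cells of neither class. That level leans on 1 S cell at 500 CPM. Bhlhe40 was read in 15.8% of the S cells and 12.2% of the others, with a median of 0 in both. Runx1 was positive with 10 of the S-phase genes and negative with 1, beside 24.6% and 25.005% of all genes, led by the replication and chromatin gene Uhrf1 (0.22, with 0.26 and 0.13).

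Genes most like each factor were named by a fixed rule on plate 1 and read again on plate 2. The rule took the 5 highest and 3 lowest of 5063 genes per factor, 72 in all. On plate 2, 35 of the 72 kept their sign (48.6%), beside 50.7% of all gene and factor values, so the leading genes of a plate did not on the whole carry over. With its 48 cells, plate 2 also gave wider values: 4.45% of all gene and factor values reached 0.3 in size there, against 0.535% on plate 1. The same steps were run for 2 other genes as a check. For Csf1r, the growth factor receptor of microglia, 8 of 8 kept their sign, and for the replication clamp Pcna 6 of 8 did.

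By these 8 genes Sall1 kept 7 signs, Irf8 5 and Bhlhe40 3. Counted by positive values of at least 0.3, Bhlhe40 had the most genes on both plates. On plate 1, 30 genes (0.593% of 5063) had a rho of at least 0.3 with it, 24 of those 30 were positive on plate 2 beside 46.7% of all genes, and 7 reached 0.3 on both plates. Its highest genes were the ubiquitin ligase gene March5 (0.48 on plate 1 and 0.18 on plate 2), Mgrn1 (0.42 and -0.04), Plaur (0.38 and 0.41), the small GTPase gene Rhoc (0.37 and 0.34) and Mrps28 (0.37 and -0.02). On plate 2 the medians in the 5 cells with Bhlhe40 and in the 43 without were 648 and 202 CPM for Plaur, 200.4 and 32.1 for Rhoc, 102.1 and 0 for March5, and 0 in both for Mgrn1 and Mrps28. The lowest genes, Mrps14, Taldo1 and Mrpl18, were all positive on plate 2 (0.24, 0.21 and 0.08).

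Sall1 had 23 genes (0.454%) at 0.3 or above on plate 1, 65.2% of them positive on plate 2 and 2 at 0.3 on both. Its highest genes were Cx3cr1, the initiation factor gene Eif3e (0.38 and 0.12), the ETS gene Etv6 (0.38 and 0.12), Tnrc6b (0.35 and 0.07) and Zfand6 (0.35 and -0.15). Its lowest were 5430435G22Rik (-0.49 and -0.15), Plaur (-0.44 and -0.32) and Slc36a4 (-0.44 and -0.12), all 3 negative on plate 2 as well. Plaur was thus among the highest for Bhlhe40 and among the lowest for Sall1.

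**Figure D4:**
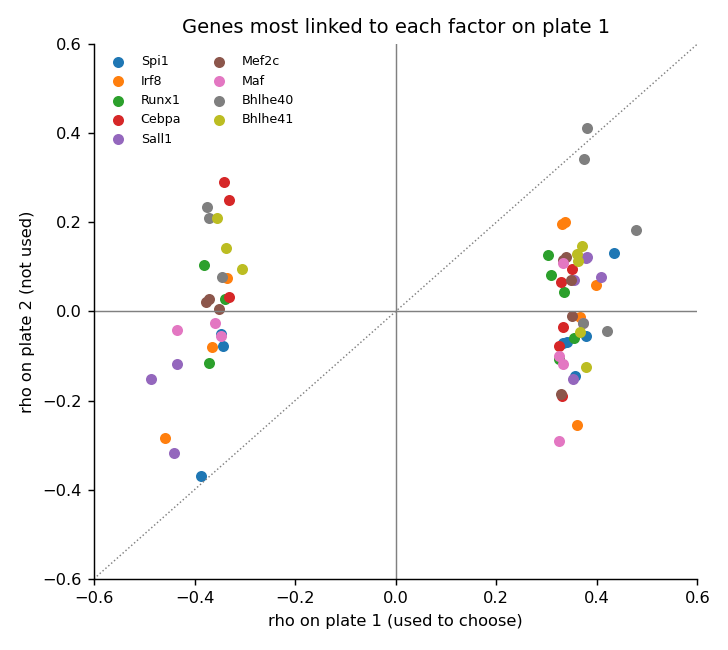
Depth-adjusted Spearman rho on plate 1, where genes were chosen, against plate 2, for the 5 highest and 3 lowest genes of each factor. Points in the upper right and lower left kept their sign: 35 of 72 did, with Plaur and Rhoc for Bhlhe40 and Plaur for Sall1 far from zero on both plates.

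For the other factors few leading genes kept their value. Spi1 was highest with Polr2e (0.43 and 0.13), then among others Sh3glb1, Slc6a6 and Pdk3, which were all negative on plate 2, and lowest with the mitochondrial import gene Timm8b (-0.39 and -0.37), Rufy2 and Ms4a6d. Irf8 was highest with the actin-binding thymosin gene Tmsb4x (0.40 and 0.06), Rnf166, Prkar1a, Ube2r2 (0.34 and 0.20) and Thrap3 (0.33 and 0.20), and lowest with Lonrf3 (-0.46 and -0.28), Baz1a and Ran. Mef2c was highest with Ap2s1, Tmem123, Pex19 (0.34 and 0.12), Laptm4a and Pld1. Maf was highest with the mannose receptor gene Mrc1, Cnot1, Arid1a (0.33 and 0.11), Dek (0.33 and -0.29) and Acss1. Runx1 was highest with Rlf (0.36 and -0.06), Parg, Cdk19, Mis12 and Tpra1, Cebpa with Gosr2 (0.35 and 0.10), Diablo, Gpd1l, March8 and Matr3, and Bhlhe41 with Papola (0.38 and -0.12), Sash1 (0.37 and 0.15), Eef2, Paip1 and Ccdc58.

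The sorted cells include many in the cell cycle, so the factors were compared between cells with and without cycle genes. A cell was placed in G2/M with at least 8 of 31 G2/M genes at 10 CPM, otherwise in S with at least 6 of 24 S genes, and 40 cells lay near these limits. This gave 31 G2/M cells, 38 S cells and 74 in neither class. Runx1 was the only factor past 1.5-fold: its pooled level was 54.5 CPM in the 69 cells of either class and 25.6 in the 74 others (log2 1.06, with 0.84 on plate 1 and 1.54 on plate 2). That is 1 of 9 factors, beside 27.6% of all 5570 genes past 1.5-fold either way and 18.1% higher. On plate 1 alone Maf (log2 -0.65) was past the limit too, and on plate 2 alone Sall1 (-1.34) and Bhlhe41 (1.11) were. In the S class alone, against the 74 others, Bhlhe40 stood at log2 0.88 (0.78 on plate 1 and 1.04 on plate 2) and Maf at -0.75. Bhlhe40 was read in 6 of those 38 S cells. The joint value and that of plate 1 lean on 1 of them, the plate 1 cell at 500 CPM named above. Neither value was recomputed without that cell, so the plate 1 value is not taken as a repeat of plate 2. In the G2/M class alone Bhlhe40 stood at -0.30 and Bhlhe41 at 0.80. Runx1 was read in 59.4% and 33.8% of cells, and in 56.5% and 29.7% after thinning.

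More genes were detected in cycling cells (medians 3721 in G2/M, 3529 in S and 2875 in neither), and Runx1 detection followed that number. Matched on plate and tertile of genes detected, 41 of the 69 cycling cells had Runx1 against 40.98 from independent detection (quotient 1.00). The other factors gave quotients from 0.85 (Bhlhe40, 9 cells against 10.54) to 1.03 (Maf, 60 against 58.1). The strata nearly follow the classes, however. The highest tertile held 28 cycling and 4 other cells on plate 1, and 13 and 3 on plate 2. The matched numbers there come mostly from the cycling cells themselves, so they lie near the observed ones by construction. In the middle tertile of plate 1, Runx1 was read in 10 of 18 cycling and 7 of 14 other cells. On plate 2 the middle tertile gave 5 of 6 and 4 of 10. In the other tertiles the Runx1 share was lower in cycling cells on both plates. By level, Maf was lower in the cycling classes (68.97 against 98.5 CPM, log2 -0.51, with -0.22 on plate 2), and so was Irf8 (log2 -0.41). Scaled to spike-ins, the median of all genes moved from 0.09 to 0.52. Irf8 (0.03), Spi1 (0.31) and Sall1 (0.16) were then above 0 with that shift, but on both scales they lay below the median gene. Runx1 (1.49), Cebpa (0.74), Mef2c (0.66), Bhlhe40 (0.89) and Bhlhe41 (0.93) were past 1.5-fold on that scale, as were 44.4% of all genes.

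**Figure D5:**
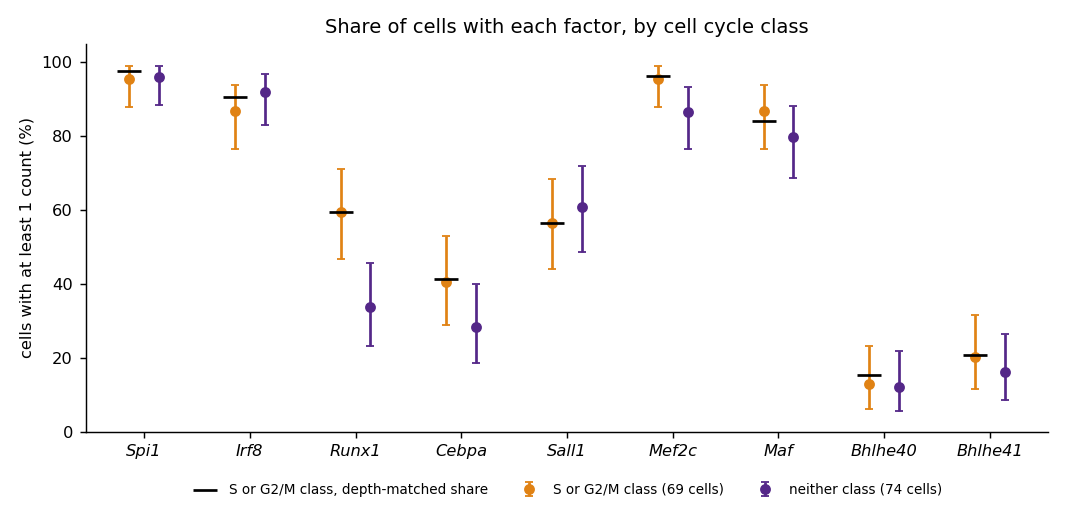
Share of cells with a count of each factor in the 69 cells of the S or G2/M class and the 74 others, with exact 95% intervals, and the depth-matched share of the cycling cells as a black bar. Runx1 differs most between the classes, 59.4% against 33.8%, and its cycling share lies on its depth-matched bar. That bar comes mostly from the cycling cells themselves.

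Between the plates, Cebpa was the factor past 1.5-fold, at 26.3 CPM on plate 1 and 16.9 on plate 2 (log2 0.61), which is 1 of 9 factors beside 19.9% of all genes. Bhlhe40 (log2 0.57), Sall1 (0.46) and Irf8 (-0.50) came close to that limit. With the ribosomal RNA precursor Rn45s left out of the scaling Cebpa stood at 0.56, just under the limit. Spi1 stood at 451 and 453 CPM on the plates.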

How the data were processed

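The authors deposited read counts, whole numbers, as 23337 gene rows and 92 spike-in rows for 143 cells. The submitters' processing notes list the build mm10 and, in no stated order, STAR 2.5.3a, HTSeq, Picard and Trim Galore 0.4.3. No source used here names the annotation. No cell was removed.

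CPM were computed from the deposited counts without spike-ins, and Rn45s, 9.28% of gene counts, was kept. Exon lengths came from GENCODE vM21. Intervals are exact Clopper-Pearson. Factor links are Spearman rho of log2(CPM + 1) ranks after regression on genes detected, by plate, for genes read in at least 20% of cells on each plate. Pooled quotients use CPM + 1. The named genes are the 9 factors, their relatives read in at least 20% of cells or nearest in sequence, the 5 highest and 3 lowest links, and the 3 leading genes at each end of a list described. Not every gene that meets this rule is printed, and some items are not reported here. The factors and gene lists were chosen with earlier results of these data known. The link steps were tested on simulated data. Tools were pandas 2.3.3, numpy 2.4.6, scipy 1.17.1 and matplotlib 3.10.9. Alternatives varied the count limit, thinning, strata, scaling, pseudocount, plates and correlation.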

Additional observations from a re-analysis of the deposited data

How the results depend on the processing

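Of 31 alternatives to the summary counts, 25 left them within 1.5 times of the value reported. With no strata, 5 pairs in place of 3 had a quotient of at least 1.1; each plate alone gave 3, but no pair was shared. Scaled to spike-ins, 5 factors in place of 1 were past 1.5-fold between cells with and without cell cycle genes; on plate 1 alone it was 2 and on plate 2 alone 3. Between the plates the count went from 1 to 0 without Rn45s and to 0 with a pseudocount of 10. The cause was not tested, beyond the fewer cells of 1 plate. The links that kept their sign, 35, ranged from 32 to 43, and the quotient of Sall1 and Bhlhe40 from 0.39 to 0.73. Of 151 further values (shares, pair quotients, levels and folds), 140 stayed, 6 moved and 5 reversed, all 5 of them log2 differences between cycling and other cells that were under 1.5-fold: Spi1 (0.31), Irf8 (0.030) and Sall1 (0.16) scaled to spike-ins, and Spi1 (0.057) and Cebpa (-0.063) on plate 2 alone. No paired analysis was possible because all cells belong to 1 group. The pool hides variation between animals, and the 18 Bhlhe40 cells, 5 of them on plate 2, limit every statement on that factor.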

Other observations

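Other regulators known from microglia were counted beside the 9 factors. Of 41 listed, 11 were read in at least 50% of cells. Hif1a, the oxygen-sensing factor, was read in 83.2% of cells, Lmo2, a partner protein of blood-cell factors, in 81.1%, Nfe2l2, the oxidative stress factor, in 77.6%, Id2, an inhibitor of helix-loop-helix factors, in 72.0% and Zeb2, a zinc-finger repressor, in 67.8%. Id3 and Nr1h3 had no count in 143 cells. Of 8 factors that mark macrophages of other tissues, 5 had no count, among them Gata6 of peritoneal and Spic of splenic macrophages, and the highest, Zfp524, was read in 9.09%.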
